A study of Mus musculus with 37 samples.

Results

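Expression of glucose uptake and glycolysis genes was followed in BCR-ABL1-transformed mouse pre-B cells with or without IK6, kept in solvent or exposed to 4 compounds. The genes were taken by name from a list of 38 members that covers glucose transport, the steps of glycolysis, lactate export and the control of pyruvate dehydrogenase. Of the 38 names, 37 were found among the 35290 genes of the count files. After an expression filter that left 15699 genes to test, 36 members remained. The name Tigar was not found. Slc2a4, the insulin-regulated glucose transporter of muscle and fat, was not tested: its level ran from 0 to 0.123 CPM, the unit used below for a gene's count with every library scaled to the same total.

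All cells shared 1 background. They were pre-B cells of strain C57BL/6 from the marrow of adult Arf-/- mice and carried BCR-ABL1, the fusion oncogene of Philadelphia chromosome-positive leukemia. A vector with green fluorescent protein was then added, either empty (MIG) or encoding IK6 (MIG-IK6, called IK6 here), a short isoform of the lymphoid transcription factor IKAROS that lacks its DNA-binding zinc fingers and acts as a dominant negative. Both were grown in RPMI medium with fetal calf serum and no cytokines. The medium held either DMSO alone or, dissolved in it, a compound at 1 µM: ATRA (all-trans retinoic acid), Carbacyclin, Bexarotene or N-oleoylethanolamine (NOE). ATRA activates retinoic acid receptors, Bexarotene is a drug that activates retinoid X receptors, Carbacyclin is a stable analog of prostacyclin, and NOE is a fatty acid amide made in the body that activates the lipid-sensing receptor PPAR-alpha. There were 37 libraries, 4 per group except for 3 groups of 3: IK6 with Carbacyclin and both vectors with Bexarotene. The labels do not say that the libraries of a group came from separate cultures, animals or clones. A p-value therefore measures only how these libraries vary, which may be technical variation. How long the cells were treated is not stated in the labels used here.

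Glycolysis turns glucose into pyruvate in the cytosol. Glucose enters through transporters of the Slc2a family, is trapped by hexokinases, committed by phosphofructokinase and split into trioses, whose oxidation by Gapdh and the following enzymes yields ATP and pyruvate. Pyruvate is then either reduced to lactate and exported through Slc16a transporters or oxidized in mitochondria by pyruvate dehydrogenase, which the Pdk kinases switch off. BCR-ABL1 signalling is known to drive glucose uptake, and IKAROS is known in pre-B cells as a factor that restrains it.

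Total counts ran from 16478899 to 80388667 per library, with a median of 35101670. Reads of Ikzf1, which encodes IKAROS and whose coding exons IK6 shares in part, averaged 264 ± 6.07 CPM (mean ± SD, n = 4) in MIG and 424 ± 10.7 CPM (n = 4) in IK6 with DMSO. Cdkn2a, the locus of Arf, was read in every group, with means of 65.6 to 132 CPM, and counts per gene do not separate the exons of Arf from those of p16. All 11 pre-B markers averaged at least 1 CPM in every group, whereas the myeloid markers S100a8 and S100a9 were at 0 in every group. Other myeloid markers were read: Itgam averaged up to 14.4 CPM (MIG with ATRA) and Lyz2 up to 13.3 CPM (IK6 with NOE). The erythroid marker Hbb-b1 averaged 1.64 to 19.2 CPM and the endothelial marker Pecam1 49.2 to 112 CPM. The summed level of 7 myeloid markers was lowest in MIG with DMSO (3.29 to 4.74 CPM) and highest in IK6 with NOE (17.3 to 20.6 CPM), and its part in the results was not tested. Ribosomal protein genes took 14.4% of counts in MIG Carbacyclin replicate 4, 14.4% in MIG DMSO replicate 3 and 11.6% in MIG Bexarotene replicate 3, against 6.83 to 10.8% in the other 34 libraries. In each of these 3 libraries the glycolysis genes were also the highest of their group, with a median log2 deviation from the group mean of 0.25, 0.14 and 0.09. In IK6 with NOE the library of highest ribosomal share (10.8%) likewise had the highest deviation (0.13). The library of lowest share there (7.57%) had the lowest (-0.20). In IK6 with Bexarotene the library of lowest share (8.63%) had the highest deviation of the glycolysis genes (0.09). With the ribosomal share added to the fit as a covariate, 0 of the 334 calls of these genes over 19 comparisons were lost, and without the 3 libraries 9 were lost. Values without the 3 libraries are given where they differ by more than 1.5 times.

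The 37 genes together took 1.61, 1.71, 1.99 and 1.73% of all counts in the 4 MIG libraries with DMSO and 1.28, 1.26, 1.28 and 1.28% in the 4 IK6 libraries with DMSO. The ranges did not overlap. With Carbacyclin, MIG cells stood at 0.945, 1.10, 0.940 and 1.40%, and with Bexarotene at 1.02, 1.04 and 1.25%, so that every treated library lay below every MIG library with DMSO. IK6 cells with NOE stood at 2.08, 1.81, 1.57 and 1.83%, above every IK6 library with DMSO. Such a share falls when fewer cells express the genes, when each cell holds less of their RNA or when other RNAs take more counts. Bulk libraries cannot tell these apart.

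**Figure D1:**
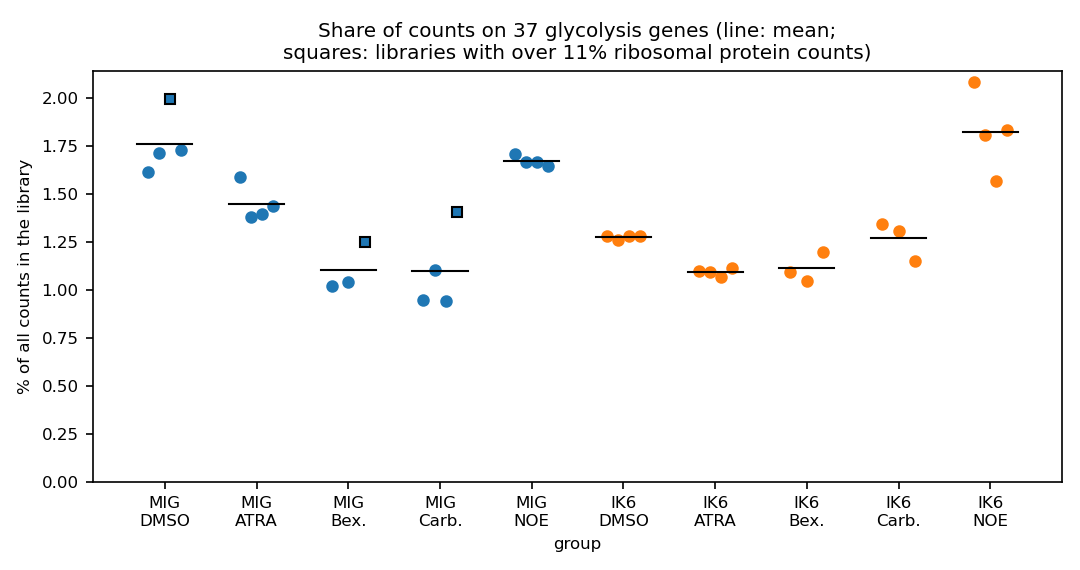
Share of all counts on the 37 glycolysis and glucose uptake genes, in %, for each of the 37 libraries (points: libraries, lines: group means, blue: MIG, orange: IK6, squares: the 3 libraries with the largest ribosomal protein share). The group means ran from 1.09% in IK6 with ATRA to 1.82% in IK6 with NOE, and the MIG mean was 1.76% with DMSO and 1.10% with Bexarotene and with Carbacyclin.

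IK6 lowered most steps of the pathway in cells kept in DMSO. Of the 36 genes tested, 23 were lower and 3 higher in IK6 than in MIG at an adjusted p under 0.05 (edgeR's quasi-likelihood test with Benjamini-Hochberg adjustment over all 15699 genes), where 12.7% of all tested genes were called lower and 13.3% higher. The median log2 fold change of the 36 was -0.45, against -0.01 over all tested genes. Below, levels are in CPM, a value marked log2 is a fitted log2 fold change with its standard error, and for an interaction it is a difference of 2 such changes. The glucose transporters Slc2a1, Slc2a3 and Slc2a6, the hexokinases Hk1 and Hk2, all 3 phosphofructokinases (Pfkl, Pfkm and Pfkp), Tpi1, Pgam1, Eno1, Eno2, Ldha, Ldhb, the lactate exporter Slc16a3 and the pyruvate dehydrogenase kinase Pdk1 were among the genes that fell. The 3 genes that were higher were Pfkfb1, Pfkfb2 and Eno3. The 10 genes not called lay between -0.40 for Aldoa and 0.44 for Hk3 on the log2 scale.

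The deepest falls among genes of at least 1 CPM were in a phosphoglucomutase, which links glucose 1-phosphate from glycogen to glycolysis, and in Slc16a3 (MCT4), a proton-coupled lactate exporter. The phosphoglucomutase is the row that the files name Pgm2 (ENSMUSG00000025791, called Pgm1 in the current RefSeq table). It had 173, 192, 222 and 196 CPM in the MIG libraries and 70.7, 71.2, 77.3 and 77.8 CPM in the IK6 libraries with DMSO. Slc16a3 had 166, 188, 246 and 202 CPM in MIG and 83.1, 77.9, 83.1 and 79.3 CPM in IK6. For both genes every IK6 library lay below every MIG library. The change was log2 -1.40 ± 0.103 (SE, adjusted p = 8.16e-13) for the phosphoglucomutase and log2 -1.31 ± 0.15 (SE, adjusted p = 1.57e-08) for Slc16a3. The 95% intervals were -1.61 to -1.19 and -1.62 to -1.01.

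**Figure D2:**
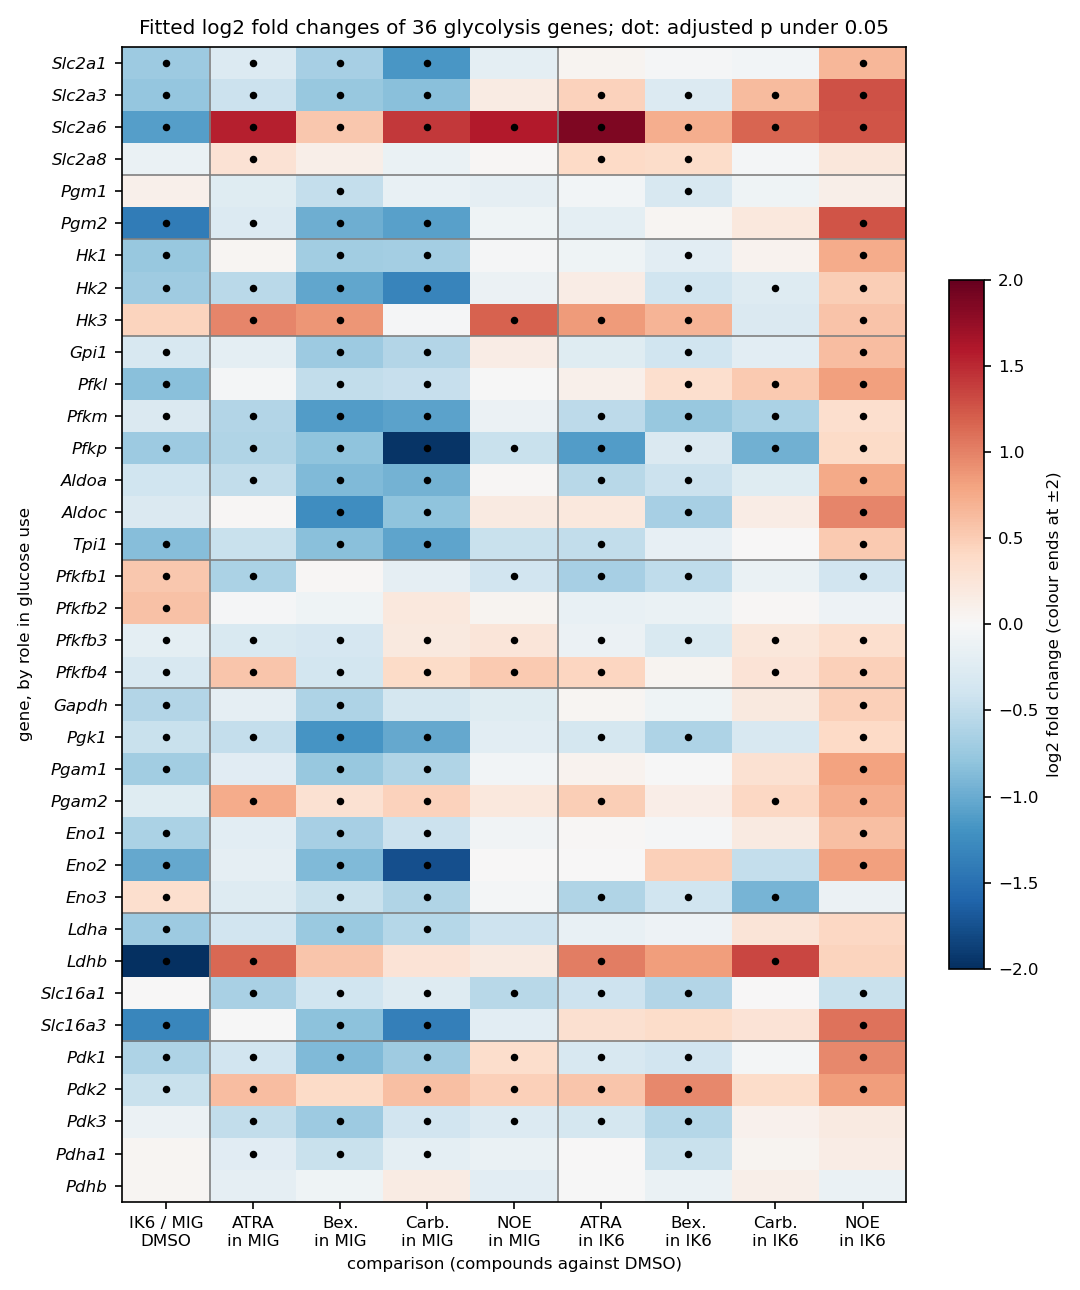
Fitted log2 fold changes (colour) of the 36 tested genes in 9 comparisons: IK6 against MIG with DMSO, then each compound against DMSO in MIG and in IK6, with genes ordered by role and a dot where the adjusted p was under 0.05. The columns for IK6 against MIG and for Bexarotene and Carbacyclin in MIG are mostly blue, with 23, 27 and 23 genes lower, and the last column, NOE in IK6, is mostly red, with 25 genes higher.

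The sequences before the start sites of members that fell together, and of 2 members without a match, are shown to set their letters side by side. ACGTG is the core known to be bound by HIF, and CACGTG the E-box bound by Myc. RefSeq's table for build GRCm38.p6 held 35 of the 37 members. The letters ACGTG, searched on both strands and so also as CACGT, occurred in the 250 bases before a start of 17 of the 35 members (48.6%), and in 3491 of 17492 genes of the table (20.0%). The longer CACGTG, which contains ACGTG on each strand, occurred in 6 of 35 members (17.1%) and in 7.61% of genes. A gene counted when any of its windows matched, and some members had several windows, up to 4 for Pfkm and Pfkfb1. All genes together had 21263 windows, of which 17.8% held ACGTG. The number of windows per gene was not matched between the members and all genes, so these shares are not on equal terms. In the sequences below, written 5′ to 3′ on the gene's strand up to the base before the start, capitals mark ACGTG or CACGT. Slc16a3 (chr11:120948817-120949066, plus strand), Slc2a1 (chr4:119108495-119108744, plus strand) and Hk2 (chr6:82774455-82774704, minus strand) each hold a match. Ldha (chr7:46845554-46845803, plus strand, the first of its windows) and the phosphoglucomutase named Pgm2 (chr4:99929201-99929450, plus strand) also hold a match. Pfkp (chr13:6648772-6649021, minus strand) and Slc2a6 (chr2:27027999-27028248, minus strand) hold none in these windows. Both also fell with IK6, and the response of Slc2a6 to the compounds went the other way. Hk1, Pfkl, Tpi1, Eno1, Eno2, Gapdh, Ldhb and Pdk1, which fell with IK6 too, held no match in any window. CACGTG occurred before Pfkfb2, which was higher in IK6, and before Slc16a1, not called between the vectors with DMSO. Whether matches go with the direction of change was not tested.
Slc16a3: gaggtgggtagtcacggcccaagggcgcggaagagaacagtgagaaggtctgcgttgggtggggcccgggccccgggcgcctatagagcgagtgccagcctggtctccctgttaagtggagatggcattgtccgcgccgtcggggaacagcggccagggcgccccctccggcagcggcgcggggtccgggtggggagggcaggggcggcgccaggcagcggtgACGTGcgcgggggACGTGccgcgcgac
Slc2a1: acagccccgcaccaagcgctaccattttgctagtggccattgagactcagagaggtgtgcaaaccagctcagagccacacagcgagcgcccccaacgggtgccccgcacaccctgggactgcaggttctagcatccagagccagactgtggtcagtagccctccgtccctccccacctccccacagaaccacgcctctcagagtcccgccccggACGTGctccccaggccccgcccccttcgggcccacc
Hk2: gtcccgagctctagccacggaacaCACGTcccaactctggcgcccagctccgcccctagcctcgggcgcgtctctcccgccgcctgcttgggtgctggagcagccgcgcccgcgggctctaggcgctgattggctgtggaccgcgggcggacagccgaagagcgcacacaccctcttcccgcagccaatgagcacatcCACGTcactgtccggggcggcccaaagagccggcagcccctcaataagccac
Ldha: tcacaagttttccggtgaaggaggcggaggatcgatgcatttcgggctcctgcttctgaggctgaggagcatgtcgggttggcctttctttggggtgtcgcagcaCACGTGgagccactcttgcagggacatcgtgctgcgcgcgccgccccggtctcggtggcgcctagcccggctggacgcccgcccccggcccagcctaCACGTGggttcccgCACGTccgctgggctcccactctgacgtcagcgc
Pgm2: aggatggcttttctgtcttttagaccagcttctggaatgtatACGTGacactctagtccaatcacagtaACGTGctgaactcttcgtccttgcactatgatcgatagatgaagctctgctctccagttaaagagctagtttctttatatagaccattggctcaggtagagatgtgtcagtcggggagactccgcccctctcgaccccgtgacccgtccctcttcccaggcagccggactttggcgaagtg
Pfkp: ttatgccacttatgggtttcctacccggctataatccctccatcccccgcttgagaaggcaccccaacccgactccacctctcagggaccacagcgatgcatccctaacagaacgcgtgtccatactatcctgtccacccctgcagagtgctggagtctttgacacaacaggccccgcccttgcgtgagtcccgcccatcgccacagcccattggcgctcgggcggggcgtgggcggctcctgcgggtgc
Slc2a6: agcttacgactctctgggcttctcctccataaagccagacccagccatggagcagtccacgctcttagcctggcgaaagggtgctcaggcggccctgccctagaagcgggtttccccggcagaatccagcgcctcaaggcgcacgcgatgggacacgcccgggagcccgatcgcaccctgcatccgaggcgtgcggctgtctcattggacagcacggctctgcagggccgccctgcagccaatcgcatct
A match of letters is a description and does not show that a factor binds there.

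In MIG cells, Bexarotene and Carbacyclin lowered the pathway broadly, ATRA lowered part of it, and NOE gave the fewest called genes of the 4. With Bexarotene 27 of 36 genes fell and 3 rose, against 18.2% and 19.9% of all tested genes, and with Carbacyclin 23 fell and 5 rose, against 23.3% and 24.7%. ATRA lowered 14 genes and raised 7, where 21.2% of all tested genes were lower and 20.6% higher. NOE lowered 4 and raised 6, where 22.3% were lower and 22.6% higher, a share of the members (11.1% and 16.7%) no larger than that of all genes. With the ribosomal share as a covariate, NOE lowered 8 and raised 8. The members' median log2 fold change was -0.66 with Bexarotene, -0.52 with Carbacyclin, -0.23 with ATRA and -0.05 with NOE. These 4 comparisons share the 4 MIG libraries with DMSO, so their values are set side by side and do not count as separate evidence. The 7 genes of the upper part (Gpi1, Pfkl, Pfkm, Pfkp, Aldoa, Aldoc and Tpi1) all fell with Bexarotene and with Carbacyclin, 3 of them fell with ATRA, and 1, Pfkp, fell with NOE. Slc2a6 rose with all 4 compounds.

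In IK6 cells the same compounds at the same dose gave other counts. NOE raised 25 of 36 genes and lowered 2, against 22.8% and 18.2% of all tested genes, and the members' median log2 fold change was 0.51. ATRA raised 8 and lowered 11 (22.7% and 20.9% of all genes), Bexarotene raised 5 and lowered 17 (22.3% and 19.4%), and Carbacyclin raised 7 and lowered 4 (20.8% and 18.8%). The Carbacyclin count became 16 higher and 7 lower with the ribosomal share as a covariate. The median log2 fold changes were 0.00, -0.15 and 0.06. With NOE all 3 hexokinases and all 7 genes of the upper part rose, as did 6 of 7 genes of the lower part, while the monocarboxylate transporter Slc16a1 and Pfkfb1 fell. Of these calls, that of Hk3 was lost without IK6 DMSO replicate 3 or 4 or IK6 NOE replicate 2 or 4 (adjusted p from 0.1006 to 0.2535), that of Tpi1 was lost without IK6 DMSO replicate 2 or 4 or IK6 NOE replicate 1 (adjusted p from 0.05165 to 0.1439) and that of Pgk1 was lost without IK6 DMSO replicate 1 or 2 or IK6 NOE replicate 1 (adjusted p from 0.05078 to 0.1628). The NOE calls of Gapdh and Pfkfb1 in IK6 were also lost without single libraries, as given with these genes below. Carbacyclin, which lowered 23 members in MIG, lowered Pfkp, Pfkm, Eno3 and Hk2 in IK6, the last a call lost without IK6 Carbacyclin replicate 1 or 3 or IK6 DMSO replicate 1, 2 or 3 (adjusted p from 0.05737 to 0.2706). These comparisons share the 4 IK6 libraries with DMSO.

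The difference between the vectors in the response to a compound was tested as an interaction, the log2 response in IK6 minus that in MIG. With Carbacyclin it was called positive for 17 of 36 genes and negative for 0, against 5.66% and 3.17% of all tested genes. With NOE it was positive for 18 and negative for 0 (6.62% and 2.20%), with Bexarotene positive for 13 and negative for 0 (3.13% and 2.56%), and with ATRA positive for 2 and negative for 1 (5.34% and 4.44%). At an unadjusted p under 0.05 in the same edgeR test, 0 genes were negative with Carbacyclin, 1 with NOE and 2 with Bexarotene, and DESeq2 also called 0 negative with each of these 3. All 4 interactions rest on the same 8 DMSO libraries, in which 23 of the 36 genes were lower in IK6. For Slc16a3 the interaction was log2 1.64 ± 0.218 (SE, adjusted p = 1.63e-06) with Carbacyclin, log2 1.29 ± 0.209 (SE, adjusted p = 4.44e-05) with NOE and log2 1.18 ± 0.227 (SE, adjusted p = 0.000936) with Bexarotene. With ATRA it was log2 0.32 and not called, with a 95% interval of -0.10 to 0.75. The 3 interactions called with ATRA were those of Slc2a3, log2 0.88 ± 0.134 (SE, adjusted p = 2.08e-05), Hk2, log2 0.69 ± 0.136 (SE, adjusted p = 0.000664), and Pfkp, log2 -0.51 ± 0.102 (SE, adjusted p = 0.000737). With the compared groups fitted alone, 5 were positive and 1 negative with ATRA.

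**Figure D3:**
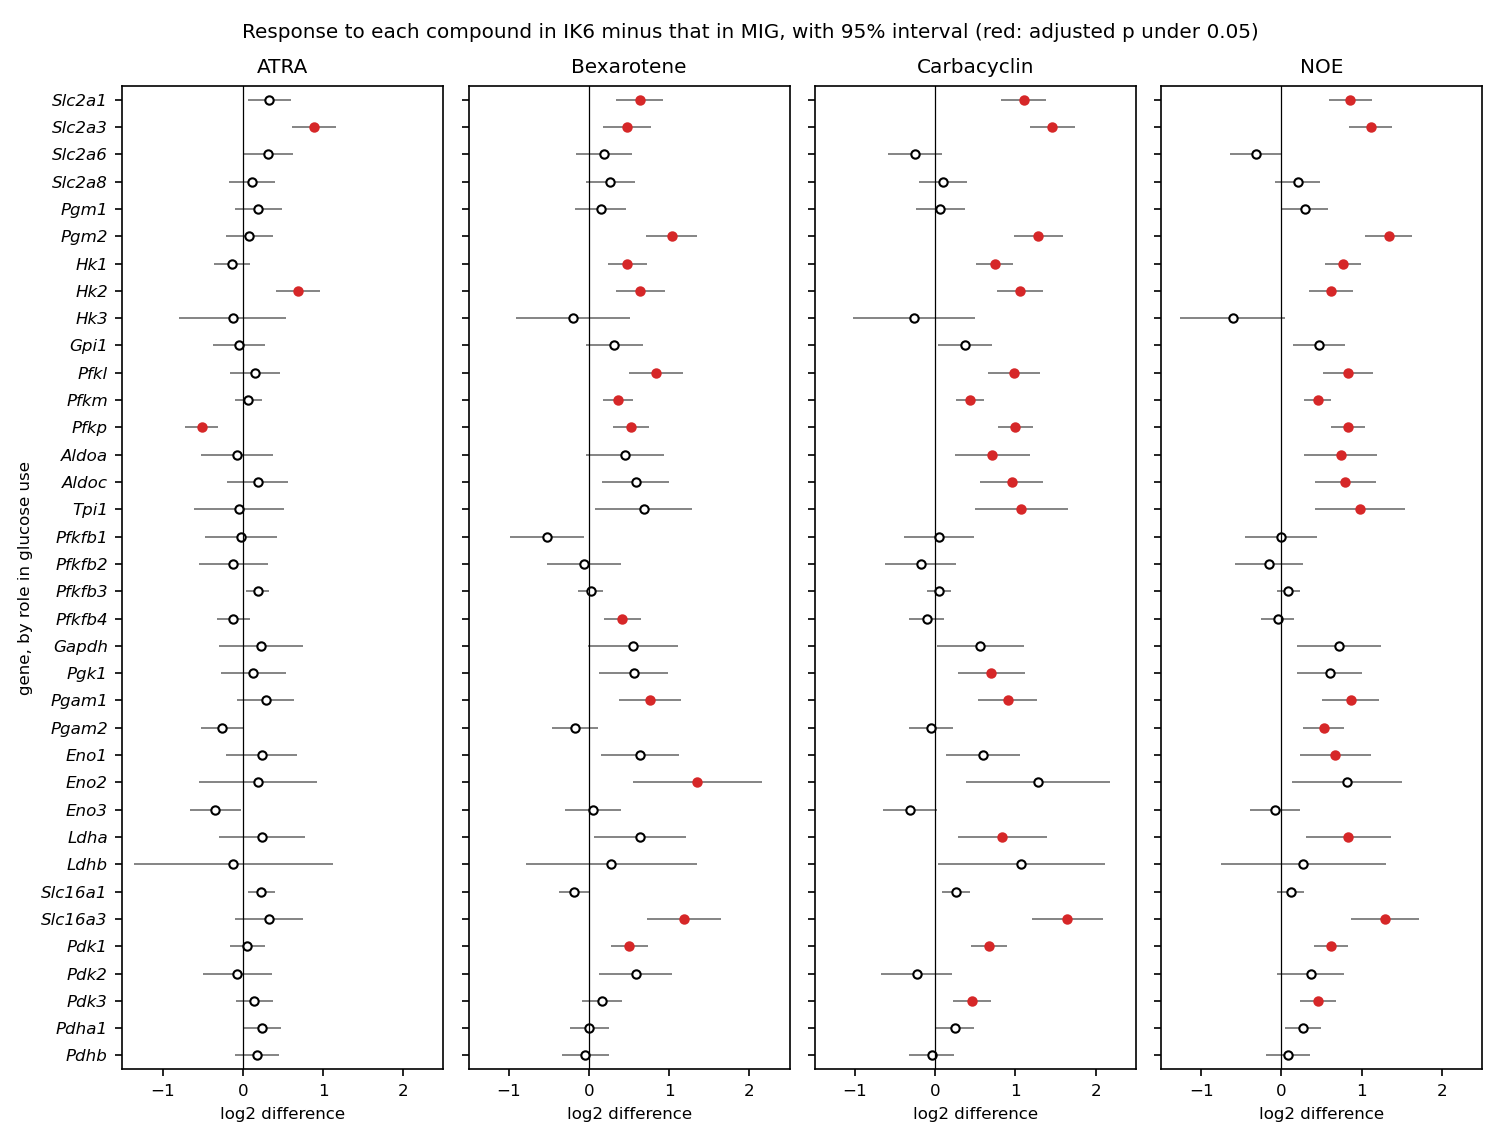
Difference between the log2 response to each compound in IK6 and in MIG for the 36 tested genes (points: fitted difference, bars: 95% interval, red: adjusted p under 0.05). With Bexarotene, Carbacyclin and NOE the 13, 17 and 18 called genes all lie to the right of 0, and with ATRA 2 lie to the right and 1, Pfkp, to the left.

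The vectors were also compared under each compound. With ATRA 20 of 36 genes were lower and 5 higher in IK6 than in MIG (20.0% and 20.9% of all tested genes), led among genes of at least 1 CPM by the phosphoglucomutase named Pgm2, log2 -1.32 ± 0.103 (SE, adjusted p = 1.96e-12), and by Pfkp, log2 -1.25 ± 0.0731 (SE, adjusted p = 1.5e-15). With Bexarotene 6 were lower and 2 higher (9.95% and 11.1%), with Slc2a6 the largest fall among genes of at least 1 CPM, log2 -0.91 ± 0.127 (SE, adjusted p = 9.53e-07). That count depended on single libraries: 3 genes were called without IK6 Bexarotene replicate 1 and 3 without replicate 2. It was also 4 with the compared groups fitted alone, 5 with no expression filter and 13 with the ribosomal share as a covariate. With Carbacyclin 6 were lower and 9 higher (14.8% and 17.3%), a count that moved both ways with the fit. It was 3 lower and 1 higher with the compared groups fitted alone, 5 lower and 19 higher without the 3 libraries of high ribosomal share, and 6 lower and 20 higher with that share as a covariate. With NOE 3 were lower and 9 higher (13.7% and 18.9%), and Slc2a6 was again the largest fall at 1 CPM or more, log2 -1.42 ± 0.105 (SE, adjusted p = 7.02e-13).

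Bexarotene and ATRA, both ligands of nuclear retinoid receptors, were compared directly at the same dose of 1 µM. In MIG 17 of 36 genes were lower and 2 higher with Bexarotene than with ATRA (11.0% and 12.6% of all tested genes), and in IK6 9 were lower and 1 higher (10.2% and 11.7%), a count of 14 and 4 without the 3 libraries of high ribosomal share, 14 and 5 with that share as a covariate and 14 and 6 with the compared groups alone. The brain-type aldolase Aldoc differed most in MIG, with 285, 221, 226 and 249.6 CPM with ATRA and 93.9, 96.4 and 117 CPM with Bexarotene, log2 -1.26 ± 0.148 (SE, adjusted p = 4.43e-08). In IK6 it had 228, 235, 232 and 218 and 129, 112 and 134 CPM, log2 -0.87 ± 0.146 (SE, adjusted p = 3.01e-05). In each vector the 2 groups did not overlap. The largest difference in IK6 was that of Slc2a6, log2 -1.14 ± 0.121 (SE, adjusted p = 6.79e-09), which in MIG was log2 -1.01 ± 0.115 (SE, adjusted p = 2.3e-08). Pfkp went the other way in IK6, being higher with Bexarotene, log2 0.83 ± 0.0773 (SE, adjusted p = 4.02e-10). In MIG its difference of log2 -0.21 was not called after adjustment (95% interval -0.36 to -0.05). Slc2a1 was lower with Bexarotene in MIG, log2 -0.38 ± 0.102 (SE, adjusted p = 0.0058), and not called in IK6, log2 -0.08 with an interval of -0.28 to 0.13.

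Among the glucose transporters, Slc2a1 (GLUT1), the main basal transporter of proliferating lymphoid cells, followed the pathway as a whole. It had 164, 179, 204 and 180.0 CPM in MIG and 115, 109, 108 and 105 CPM in IK6 with DMSO, without overlap, log2 -0.73 ± 0.0945 (SE, adjusted p = 1.64e-07). In MIG it stood at 159, 135, 153 and 151 CPM with ATRA, 108, 109.5 and 127 with Bexarotene, 69.0, 85.7, 74.4 and 96.0 with Carbacyclin and 163, 162, 158 and 149 with NOE. The Carbacyclin libraries were all below those of the other MIG groups, and the change was log2 -1.16 ± 0.0954 (SE, adjusted p = 5.1e-12) with Carbacyclin and log2 -0.66 ± 0.103 (SE, adjusted p = 4.2e-06) with Bexarotene. The smaller fall with ATRA, log2 -0.28 ± 0.0941 (SE, adjusted p = 0.0159), was lost without MIG ATRA replicate 2, log2 -0.23 (adjusted p = 0.07304), and without MIG DMSO replicate 3, log2 -0.22 (adjusted p = 0.07804). The IK6 libraries had 116, 117, 108 and 111 CPM with ATRA, 91.7, 108 and 123 with Bexarotene, 102, 116 and 96.9 with Carbacyclin and 193, 178, 142 and 177 with NOE. NOE thus put all 4 IK6 libraries above the highest with DMSO, log2 0.66 ± 0.0944 (SE, adjusted p = 6.34e-07), while Carbacyclin left it at log2 -0.06, not called. The interactions were log2 1.10 ± 0.139 (SE, adjusted p = 6.66e-07) for Carbacyclin, log2 0.86 ± 0.133 (SE, adjusted p = 2.18e-05) for NOE and log2 0.63 ± 0.144 (SE, adjusted p = 0.00533) for Bexarotene.

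**Figure D4:**
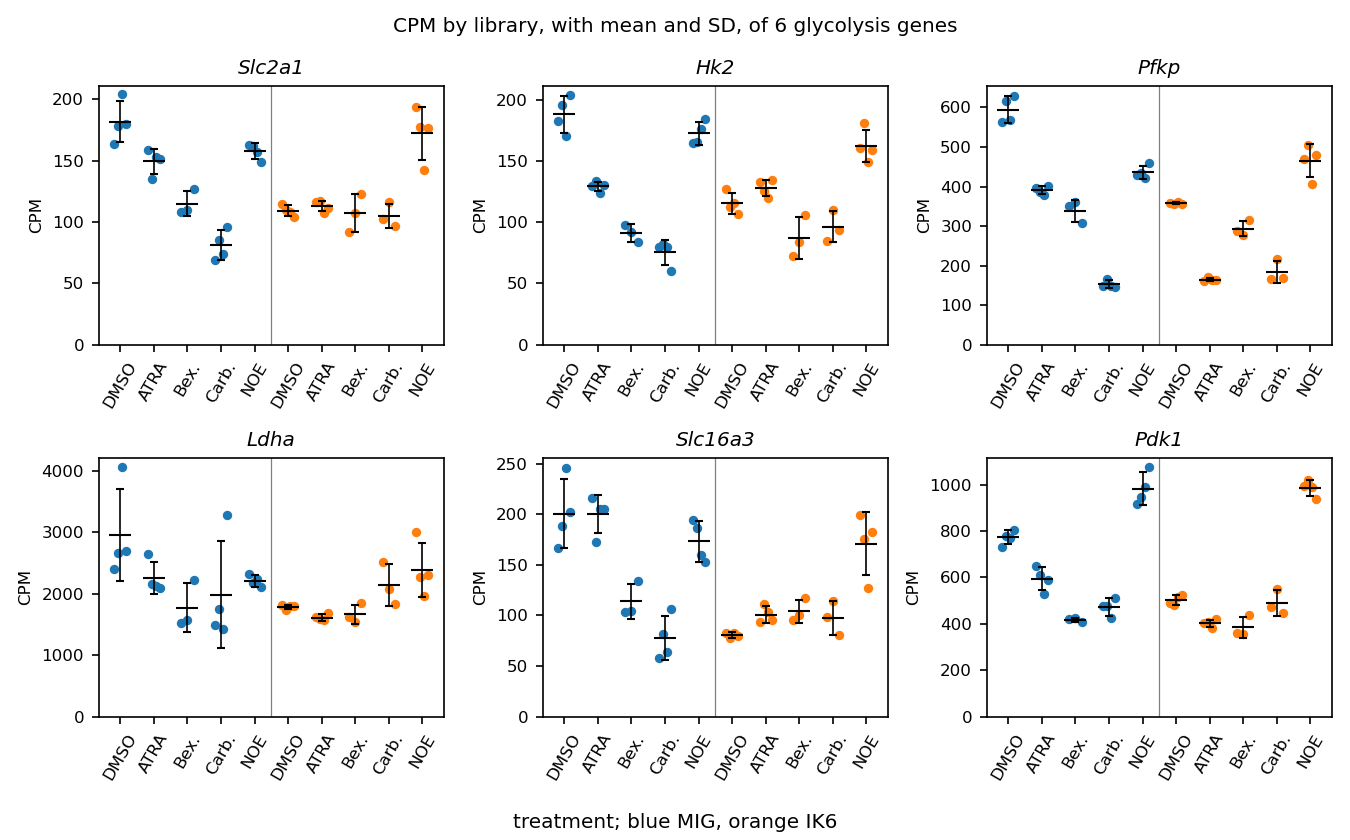
CPM of Slc2a1, Hk2, Pfkp, Ldha, Slc16a3 and Pdk1 in every library (points: libraries, horizontal lines: group mean, bars: SD, blue: MIG, orange: IK6). Within MIG the Carbacyclin group is the lowest of the 5 groups for Slc2a1, Hk2, Pfkp and Slc16a3, and within IK6 the NOE group has the highest mean of the 5 for each of the 6 genes.

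Slc2a3 (GLUT3), a transporter of high affinity for glucose, fell with IK6 from 40.6, 46.2, 46.1 and 47.3 to 26.1, 26.1, 27.5 and 25.8 CPM, log2 -0.77 ± 0.0948 (SE, adjusted p = 6.17e-08). In MIG its libraries had 36.9, 35.6, 30.7 and 30.9 CPM with ATRA, 28.2, 27.8 and 24.0 with Bexarotene and 25.4, 25.9, 23.6 and 26.7 with Carbacyclin, each group below all DMSO libraries. In IK6 they had 35.6, 38.8, 33.9 and 36.6 CPM with ATRA, 36.5, 49.5 and 36.6 with Carbacyclin and 67.4, 67.2, 60.2 and 59.9 with NOE, each group above all DMSO libraries. ATRA and Carbacyclin therefore lowered Slc2a3 in MIG, log2 -0.42 (adjusted p = 0.000432) and log2 -0.83 (adjusted p = 8.27e-09), and raised it in IK6, log2 0.46 (adjusted p = 0.000168) and log2 0.63 (adjusted p = 5.78e-06). The interaction was log2 1.46 ± 0.139 (SE, adjusted p = 3.08e-09) with Carbacyclin and log2 1.11 ± 0.133 (SE, adjusted p = 3.24e-07) with NOE, which in MIG left 44.7, 47.9, 50.2 and 58.9 CPM, not called at log2 0.16. In IK6 with Bexarotene it had 20.3, 19.0 and 25.6 CPM, less than with ATRA, log2 -0.74 ± 0.105 (SE, adjusted p = 1.76e-06).

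Slc2a6 (GLUT6), an intracellular member of the family, was lower in IK6, from 9.44, 9.15, 8.46 and 10.1 to 4.11, 4.14, 4.89 and 4.18 CPM, log2 -1.10 ± 0.115 (SE, adjusted p = 2.33e-09), but rose with every compound in both vectors. In MIG it had 25.3, 24.7, 28.1 and 31.1 CPM with ATRA, 12.8, 13.0 and 14.9 with Bexarotene, 22.5, 27.3, 25.2 and 23.9 with Carbacyclin and 31.4, 32.2, 26.1 and 21.4 with NOE. Bexarotene gave the smallest rise, log2 0.54 ± 0.116 (SE, adjusted p = 0.000288), and the other 3 gave log2 1.56 ± 0.108, log2 1.42 ± 0.107 and log2 1.58 ± 0.107 with adjusted p-values of 1.01e-13, 7.32e-13 and 3.71e-14. In IK6 the level was 15.0, 17.7, 15.9 and 14.6 CPM with ATRA, 7.23, 6.94 and 7.35 with Bexarotene, 10.5, 9.51 and 9.09 with Carbacyclin and 10.2, 11.3, 8.54 and 11.4 with NOE, none overlapping DMSO. The largest rise was with ATRA, log2 1.87 ± 0.113 (SE, adjusted p = 3.03e-15). No interaction was called for Slc2a6 with any compound: the estimates ran from log2 -0.32 (95% interval -0.64 to -0.01) with NOE to log2 0.31 (0.00 to 0.63) with ATRA. Slc2a8 (GLUT8), an intracellular transporter, kept a narrow range, its group means running from 7.55 CPM in IK6 with Carbacyclin to 10.4 CPM in MIG with ATRA. It was called higher with ATRA in both vectors. In IK6 it rose with ATRA from 7.13, 7.97, 8.62 and 7.23 to 9.94, 11.2, 10.7 and 8.78 CPM, log2 0.40 ± 0.0977 (SE, adjusted p = 0.00119), and with Bexarotene to 10.7, 9.62 and 9.71 CPM, log2 0.37 ± 0.106 (SE, adjusted p = 0.00468). With Bexarotene in MIG it was not called.

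Hexokinase 2 (Hk2), the inducible hexokinase of growing cells, had 182, 195, 170.1 and 204 CPM in MIG and 127, 112, 115 and 107 CPM in IK6 with DMSO. The groups did not overlap, log2 -0.70 ± 0.0962 (SE, adjusted p = 4.94e-07). The MIG libraries had 129.6, 133, 124 and 130.0 CPM with ATRA, 97.5, 92.1 and 83.6 with Bexarotene, 79.8, 82.4, 79.9 and 60.4 with Carbacyclin and 164, 165, 176 and 184 with NOE. The first 3 groups lay below all DMSO libraries, with changes of log2 -0.54 ± 0.0962 (SE, adjusted p = 2.25e-05), log2 -1.05 ± 0.106 (SE, adjusted p = 1.41e-09) and log2 -1.31 ± 0.0976 (SE, adjusted p = 4.49e-13), while the NOE group overlapped DMSO and was not called at log2 -0.12. IK6 cells had 132, 126, 119.8 and 134 CPM with ATRA, 72.2, 83.8 and 106 with Bexarotene, 85.0, 110.3 and 93.7 with Carbacyclin and 160.5, 181, 149 and 159 with NOE. ATRA, which lowered Hk2 in MIG, gave log2 0.15 in IK6, not called, and NOE raised it, log2 0.49 ± 0.0959 (SE, adjusted p = 7.58e-05). The interactions with Bexarotene, Carbacyclin and NOE were log2 0.64 ± 0.147 (SE, adjusted p = 0.00572), log2 1.05 ± 0.141 (SE, adjusted p = 1.94e-06) and log2 0.62 ± 0.135 (SE, adjusted p = 0.00205).

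Hk1, the constitutive hexokinase bound to mitochondria, fell with IK6 from 179.6, 192, 189 and 184 to 109, 109, 116 and 108 CPM, log2 -0.75 ± 0.0776 (SE, adjusted p = 1.67e-09). ATRA left it at 205, 182, 188 and 193 CPM in MIG, not called at log2 0.05, where Bexarotene brought it to 116, 113 and 117 CPM, log2 -0.69 ± 0.0847 (SE, adjusted p = 6.25e-08). Carbacyclin brought it to 113, 119.7, 109 and 126 CPM, log2 -0.67 ± 0.0776 (SE, adjusted p = 9.16e-09). With NOE in IK6 it had 208, 196, 155 and 183 CPM, log2 0.75 ± 0.0776 (SE, adjusted p = 1.07e-09). With Bexarotene in IK6 it had 89.3, 86.4 and 110.0 CPM, lower than in MIG with Bexarotene, log2 -0.28 ± 0.0896 (SE, adjusted p = 0.0231). That call was lost without IK6 Bexarotene replicate 1 or 2 or MIG Bexarotene replicate 1 or 3 (adjusted p from 0.05798 to 0.1594). Hk3, a hexokinase of myeloid cells, was at the edge of detection, its group means running from 0.465 to 1.16 CPM. It rose with NOE in MIG from 0.578, 0.508, 0.47 and 0.305 to 1.16, 1.10, 0.99 and 0.986 CPM, log2 1.17 ± 0.231 (SE, adjusted p = 8.56e-05). It was also called higher in MIG with ATRA, log2 0.97, and with Bexarotene, log2 0.88. In IK6 it rose with ATRA from 0.781, 0.739, 0.499 and 0.567 to 1.08, 1.16, 1.11 and 1.29 CPM, log2 0.85 ± 0.213 (SE, adjusted p = 0.00151). With Bexarotene it had 1.11, 1.15 and 0.858 CPM in IK6, log2 0.68 ± 0.237 (SE, adjusted p = 0.02), a call lost without IK6 Bexarotene replicate 1 or 2 or IK6 DMSO replicate 3 or 4 (adjusted p from 0.0551 to 0.111). The summed myeloid markers stood at 14.9 to 16.5 CPM in MIG with NOE and 10.6 to 11.8 CPM in IK6 with ATRA, beside 3.29 to 4.74 and 4.24 to 5.7 CPM with DMSO, and their part in these changes was not tested. With Carbacyclin Hk3 was not called in either vector, log2 -0.02 in MIG and log2 -0.29 in IK6. The summed myeloid markers stood there at 7.80 to 12.3 CPM in MIG and 11.5 to 15.25 CPM in IK6, also above DMSO. With Bexarotene they stood at 9.87 to 11.6 CPM in MIG and 6.56 to 8.81 CPM in IK6.

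Phosphofructokinase makes the committed step of glycolysis, and its subunits are encoded by 3 genes. Pfkp, the platelet subunit, changed most of all members in MIG with Carbacyclin, from 564, 616, 569 and 629.8 CPM with DMSO to 149, 167, 149 and 145 CPM, 3.90-fold lower and log2 -1.96 ± 0.0745 (SE, adjusted p = 1.36e-20). In MIG the level was 397, 385, 379.8 and 402 CPM with ATRA, 350.2, 359.7 and 307 with Bexarotene and 428, 435, 421 and 459 with NOE. Each of these groups also lay below all DMSO libraries, with changes of log2 -0.60 ± 0.0721, log2 -0.81 ± 0.0791 and log2 -0.45 ± 0.072. IK6 with DMSO had 358, 356, 361 and 357 CPM, a fall of log2 -0.73 ± 0.0722 (SE, adjusted p = 6.24e-10) from MIG. Within IK6 it dropped further with ATRA, to 161, 171, 164 and 164 CPM, and with Carbacyclin, to 165, 216 and 169 CPM, and less with Bexarotene, to 287, 278 and 314 CPM. The ATRA change was log2 -1.12 ± 0.0728 (SE, adjusted p = 1.98e-14) in IK6 against log2 -0.60 in MIG, the only member whose ATRA response was called more negative in IK6. The other interactions of Pfkp were positive, log2 1.00 ± 0.106 (SE, adjusted p = 2.58e-08) with Carbacyclin, log2 0.83 ± 0.102 (SE, adjusted p = 5e-07) with NOE and log2 0.52 ± 0.11 (SE, adjusted p = 0.00246) with Bexarotene. With NOE in IK6 it rose to 471, 506, 406 and 479.9 CPM, log2 0.38 ± 0.0719 (SE, adjusted p = 5.3e-05).

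Pfkm, the muscle subunit, had 66.6, 70.4, 73.6 and 71.5 CPM in MIG and 53.5, 59.7, 59.6 and 57.4 CPM in IK6 with DMSO, log2 -0.29 ± 0.0585 (SE, adjusted p = 0.000176). It was the phosphofructokinase that Bexarotene lowered most in each vector, to 32.5, 32.9 and 32.6 CPM in MIG, log2 -1.11 ± 0.0655 (SE, adjusted p = 4.37e-15), and to 34.8, 31.4 and 36.0 CPM in IK6, log2 -0.75 ± 0.065 (SE, adjusted p = 3.2e-11). Carbacyclin brought it to 34.0, 34.2, 31.2 and 35.2 CPM in MIG and 37.9, 38.8 and 34.3 CPM in IK6, log2 -1.07 (adjusted p = 3.27e-16) and log2 -0.64 (adjusted p = 9.37e-10). ATRA brought it to 50.4, 47.1, 44.2 and 45.8 and 40.9, 41.6, 38.3 and 39.8 CPM, log2 -0.59 (adjusted p = 5.73e-10) and log2 -0.52 (adjusted p = 8.05e-09). Pfkm thus fell with these 3 compounds in both vectors, and in no case did the treated libraries overlap DMSO. Pfkl, the liver subunit, fell with IK6 from 378, 417, 487 and 420.1 to 249, 229, 242 and 232 CPM, log2 -0.84 ± 0.109 (SE, adjusted p = 1.81e-07). With Carbacyclin it fell in MIG to 268, 320.4, 260.2 and 383 CPM, log2 -0.47 ± 0.108 (SE, adjusted p = 0.00057), where 1 library, replicate 4 of high ribosomal share, overlapped DMSO, and rose in IK6 to 364, 373 and 285 CPM, log2 0.52 ± 0.116 (SE, adjusted p = 0.00052). With Bexarotene it had 280.2, 289 and 334 CPM in MIG and 286, 289 and 324 CPM in IK6. The interaction was log2 0.99 ± 0.159 (SE, adjusted p = 3.76e-05) with Carbacyclin and log2 0.83 ± 0.165 (SE, adjusted p = 0.00141) with Bexarotene. With NOE it rose in IK6 to 488, 443, 329 and 424 CPM, log2 0.82 ± 0.109 (SE, adjusted p = 1.42e-07), and in MIG was not called at log2 0.00.

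The remaining enzymes of the upper part are Gpi1, the glucose 6-phosphate isomerase, the aldolases Aldoa and Aldoc, and Tpi1, the triose phosphate isomerase. Tpi1 had 1222, 1341, 2097 and 1384 CPM in MIG and 856, 798, 854 and 841 CPM in IK6 with DMSO, and 523, 650.4, 486 and 1241 CPM in MIG with Carbacyclin. Replicate 3 of MIG DMSO and replicate 4 of MIG Carbacyclin, each of high ribosomal share, stood highest in their groups, and the second overlapped the MIG DMSO range. The change was log2 -0.85 ± 0.195 (SE, adjusted p = 0.000957) with IK6 and log2 -1.06 ± 0.196 (SE, adjusted p = 3.4e-05) with Carbacyclin. With ATRA it had 1333, 1071, 1005 and 1023 CPM in MIG and 584, 599.9, 574 and 623 CPM in IK6, log2 -0.90 ± 0.195 (SE, adjusted p = 0.00034). With NOE it had 1123, 1062, 1141 and 1108 CPM in MIG and 1524, 1136, 1007 and 1170.2 CPM in IK6. Its interaction, log2 0.98 ± 0.274 (SE, adjusted p = 0.0187), was lost without IK6 NOE replicate 1, log2 0.79 (adjusted p = 0.07826), and without MIG DMSO replicate 3, log2 0.77 (adjusted p = 0.06612). The aldolase Aldoc had 206, 231, 291 and 239.7 CPM in MIG and 191, 192, 208 and 199 CPM in IK6 with DMSO, overlapping and not called at log2 -0.29. Bexarotene lowered it in MIG, log2 -1.24 ± 0.148 (SE, adjusted p = 3.71e-08), and in IK6, log2 -0.66 ± 0.145 (SE, adjusted p = 0.000417). NOE raised it in IK6 to 455, 374, 320.1 and 401 CPM, log2 0.97 ± 0.133 (SE, adjusted p = 2.83e-07), beside 299.8, 279, 263 and 251 CPM in MIG with NOE, log2 0.18 and not called. With Carbacyclin it had 109, 133, 114 and 197 CPM in MIG and 231, 239 and 187 CPM in IK6, overlapping ranges with a vector difference of log2 0.66 ± 0.142 (SE, adjusted p = 0.000395). Aldoa, the main aldolase of most cells, had 1185, 1235, 1238 and 1228 CPM in IK6 with DMSO, 845, 824, 789 and 852 with ATRA and 2559, 2033, 1598 and 2044 with NOE, without overlap between the 3 groups. Its changes were log2 -0.56 ± 0.156 (SE, adjusted p = 0.00391) with ATRA and log2 0.75 ± 0.157 (SE, adjusted p = 0.000184) with NOE.

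The 4 Pfkfb genes encode enzymes that make and break fructose 2,6-bisphosphate, the activator of phosphofructokinase, and their changes differed in direction. Pfkfb2, the heart isoform, was higher in IK6, with 31.8, 32.6, 23.7 and 32.0 CPM in MIG and 46.7, 41.3, 46.2 and 45.7 CPM in IK6, log2 0.58 ± 0.148 (SE, adjusted p = 0.00279), and no compound gave a called change of it in either vector. It had 27.2, 30.9, 29.7 and 30.2 CPM in MIG and 40.7, 40.0, 39.0 and 43.0 CPM in IK6 with ATRA, 31.6, 31.4 and 22.5 and 40.6, 40.3 and 41.6 CPM with Bexarotene, and 29.1, 28.8, 32.2 and 34.7 and 32.7, 45.0, 49.7 and 40.3 CPM with NOE. It was higher in IK6 under these 3 compounds too, log2 0.46 (adjusted p = 0.0124), log2 0.52 (adjusted p = 0.0261) and log2 0.43 (adjusted p = 0.023). With Carbacyclin it had 40.0, 38.8, 39.9 and 19.9 CPM in MIG and 38.3, 48.8 and 50.2 CPM in IK6, overlapping and not called, log2 0.40 (adjusted p = 0.0512). The MIG libraries of high ribosomal share were each the lowest of their group for Pfkfb2: 23.7 CPM with DMSO, 22.5 with Bexarotene and 19.9 with Carbacyclin. They thus lower the MIG means. The Bexarotene call was lost without IK6 Bexarotene replicate 1, 2 or 3 or MIG Bexarotene replicate 3 (adjusted p from 0.05406 to 0.1522). The NOE call, whose groups overlapped, was lost without IK6 NOE replicate 2 or 3 or MIG NOE replicate 1, 2 or 3 (adjusted p from 0.05285 to 0.09816). Pfkfb1, the liver isoform, was low but also higher in IK6, with 2.66, 1.97, 2.16 and 2.20 and 3.59, 2.95, 3.30 and 3.18 CPM, log2 0.54 ± 0.145 (SE, adjusted p = 0.00434). ATRA lowered it to 1.42, 1.60, 1.35 and 1.37 CPM in MIG, log2 -0.64 ± 0.162 (SE, adjusted p = 0.0018), and to 1.47, 2.11, 2.33 and 2.39 CPM in IK6, log2 -0.66 ± 0.143 (SE, adjusted p = 0.00034). With NOE it had 2.05, 1.74, 1.53 and 1.496 CPM in MIG and 2.74, 2.32, 2.38 and 2.56 CPM in IK6, a fall in both, log2 -0.38 (adjusted p = 0.0406) and log2 -0.38 (adjusted p = 0.0273). The MIG call, whose groups overlapped, was lost without MIG DMSO replicate 1, 3 or 4 or MIG NOE replicate 2, 3 or 4 (adjusted p from 0.05547 to 0.2014). The IK6 call was lost without IK6 DMSO replicate 1 or 3 or IK6 NOE replicate 2 or 3 (adjusted p from 0.05204 to 0.08583). The excess in IK6 was log2 0.54 (adjusted p = 0.00434) with NOE and log2 0.59 (adjusted p = 0.0038) with Carbacyclin, where MIG had 2.30, 2.02, 2.05 and 1.59 and IK6 2.71, 2.59 and 3.71 CPM. The Carbacyclin call was lost without IK6 Carbacyclin replicate 3, log2 0.42 (adjusted p = 0.06808). Bexarotene left it at 2.20, 2.77 and 1.76 CPM in MIG, higher than with ATRA, log2 0.65 ± 0.171 (SE, adjusted p = 0.00416), lost without MIG Bexarotene replicate 2, log2 0.45 (adjusted p = 0.09744). Pfkfb4, an isoform first known from testis, had 8.09, 7.90, 8.86 and 7.69 CPM in MIG and 6.35, 6.30, 6.92 and 6.54 CPM in IK6 with DMSO, log2 -0.31 ± 0.0722 (SE, adjusted p = 0.000957). In MIG it rose with ATRA to 11.3, 11.4, 12.7 and 12.3 CPM, with Carbacyclin to 10.8, 11.8, 9.72 and 10.1 CPM and with NOE to 12.2, 11.7, 11.3 and 11.3 CPM, and fell with Bexarotene to 6.32, 6.96 and 5.63 CPM. The changes were log2 0.55 (adjusted p = 1.21e-07), log2 0.39 (adjusted p = 3.03e-05), log2 0.52 (adjusted p = 2.24e-07) and log2 -0.36 (adjusted p = 0.000385), so Bexarotene and ATRA moved it in opposite directions in MIG and differed, log2 -0.91 ± 0.0787 (SE, adjusted p = 5.87e-11). In IK6 it had 7.99, 8.04 and 7.72 CPM with Carbacyclin and 9.03, 9.21, 8.84 and 9.08 CPM with NOE, lower than in MIG, log2 -0.42 (adjusted p = 4.39e-05) and log2 -0.36 (adjusted p = 7.79e-05). Pfkfb3, an isoform with strong kinase activity in dividing cells, kept group means between 84.2 and 141 CPM. It rose with Carbacyclin and NOE in both vectors, by log2 0.19 and log2 0.24 in MIG and log2 0.23 and log2 0.33 in IK6, with adjusted p-values from 1.16e-06 to 0.00191.

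**Figure D5:**
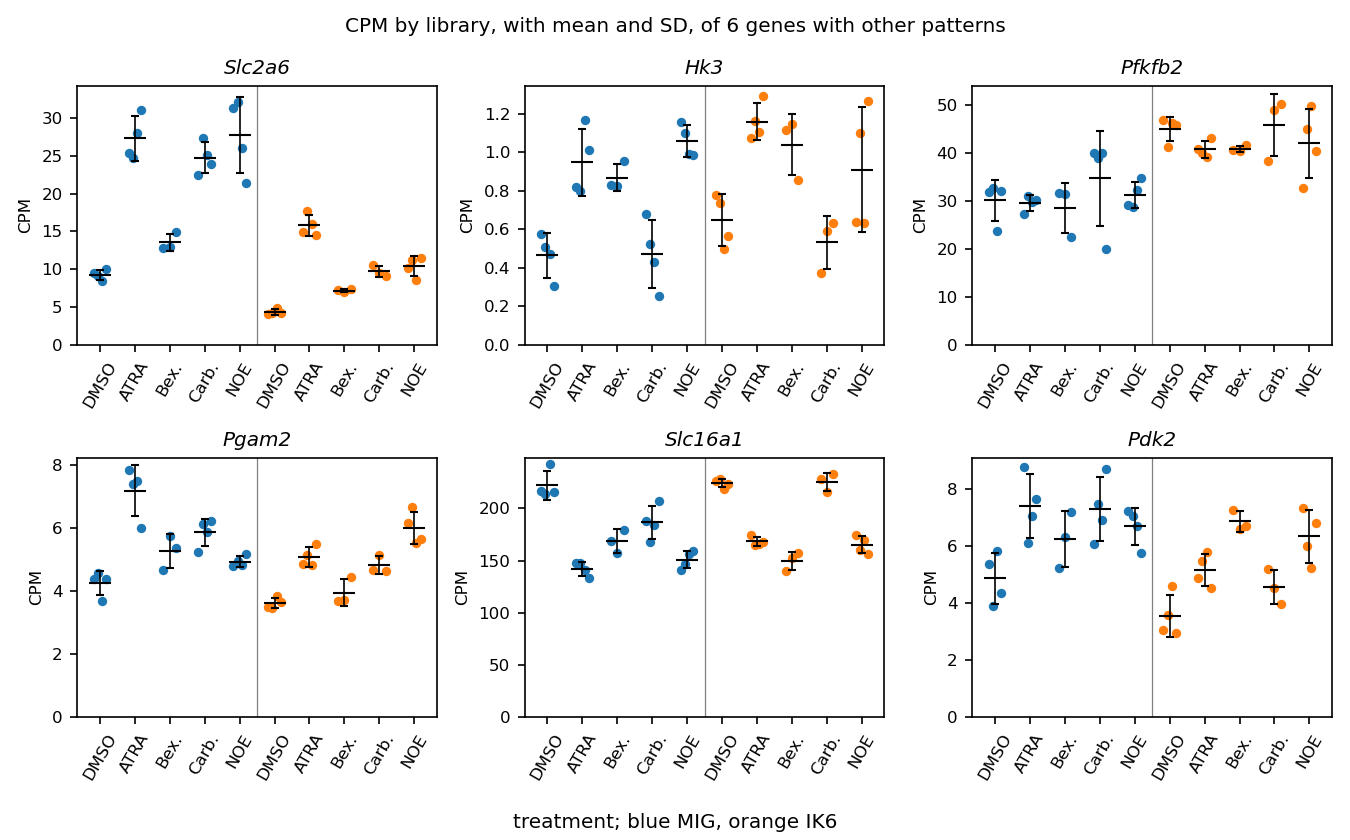
CPM of Slc2a6, Hk3, Pfkfb2, Pgam2, Slc16a1 and Pdk2 in every library (points: libraries, horizontal lines: group mean, bars: SD, blue: MIG, orange: IK6), genes whose pattern differed from that of the pathway. Slc2a6 is lowest with DMSO in both vectors, Pfkfb2 is called higher in IK6 with DMSO, ATRA, Bexarotene and NOE but not with Carbacyclin, and Slc16a1 is lower with ATRA, Bexarotene and NOE in both vectors.

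Gapdh opens the lower part of glycolysis by oxidizing glyceraldehyde 3-phosphate. It had 1711, 1950.0, 2842 and 1908 CPM in MIG and 1402, 1416, 1411 and 1384 CPM in IK6 with DMSO, without overlap. The change, log2 -0.58 ± 0.182 (SE, adjusted p = 0.0148), was lost without MIG DMSO replicate 3, log2 -0.40 (adjusted p = 0.1031). MIG cells had 2100.3, 1595, 1865 and 1864 CPM with ATRA, 1149, 1213 and 1732 with Bexarotene, 1118, 1551, 1283 and 2615 with Carbacyclin and 1985, 1852, 1674 and 1602 with NOE, all overlapping DMSO. Bexarotene alone gave a call, log2 -0.62 ± 0.198 (SE, adjusted p = 0.0122), which was lost without MIG Bexarotene replicate 1, log2 -0.51 (adjusted p = 0.08203), without replicate 2, log2 -0.55 (adjusted p = 0.07008), and without MIG DMSO replicate 3, log2 -0.46 (adjusted p = 0.05978). The IK6 libraries had 1432, 1475, 1513 and 1377 CPM with ATRA, 1374, 1256 and 1358 with Bexarotene, 1897, 1590.0 and 1356 with Carbacyclin and 2248, 1896, 1489 and 2152 with NOE. The rise with NOE, log2 0.47 ± 0.181 (SE, adjusted p = 0.0364), was lost without any of 7 of the 8 compared libraries, all but IK6 NOE replicate 3 (adjusted p from 0.0534 to 0.132).

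Pgk1, which makes the first ATP of the pathway, fell with Bexarotene in MIG from 2026, 2187, 2661 and 2041 to 897, 915 and 1148 CPM, log2 -1.18 ± 0.155 (SE, adjusted p = 2.43e-07). In IK6 it went from 1583, 1605, 1619 and 1737 to 1051, 1060.0 and 1080.5 CPM, log2 -0.62 ± 0.153 (SE, adjusted p = 0.0013). Its lower level in IK6 with DMSO, log2 -0.45 ± 0.14 (SE, adjusted p = 0.0155), was lost without MIG DMSO replicate 3, log2 -0.35 (adjusted p = 0.0714). The near-identical copy Pgk1-rs7 held 19.4 to 28.4% of the counts of the pair, so the split of reads between them is uncertain, and the copy Pgam1-ps2 held 9.95 to 13.8% of its pair with Pgam1. Adding the copies to their genes changed no call in the 19 comparisons. Pgam1, the main phosphoglycerate mutase, was lower in IK6, with 598, 647, 806 and 647 and 386, 414, 424 and 436 CPM, log2 -0.70 ± 0.124 (SE, adjusted p = 3.58e-05). It rose with NOE in IK6 to 842, 679.6, 636 and 744 CPM, log2 0.81 ± 0.124 (SE, adjusted p = 2.32e-06). With Bexarotene it had 357, 371 and 468 CPM in MIG and 413, 419 and 412 CPM in IK6, and the interaction, log2 0.76 ± 0.189 (SE, adjusted p = 0.012), was lost without MIG Bexarotene replicate 1, log2 0.68 (adjusted p = 0.05352). Pgam2, the muscle form, rose with ATRA and Carbacyclin in both vectors. It had 4.36, 4.55, 3.68 and 4.37 CPM in MIG with DMSO, 7.83, 7.39, 7.49 and 6.00 with ATRA and 5.23, 6.11, 5.86 and 6.21 with Carbacyclin, without overlap between DMSO and either compound, log2 0.75 (adjusted p = 3.19e-08) and log2 0.46 (adjusted p = 6.86e-05). In IK6 the level was 3.49, 3.47, 3.82 and 3.64 CPM with DMSO, 4.84, 5.14, 4.81 and 5.49 with ATRA, 4.66, 5.15 and 4.64 with Carbacyclin and 6.16, 6.65, 5.50 and 5.66 with NOE, each compound above all DMSO libraries. With Bexarotene it had 4.66, 5.73 and 5.37 CPM in MIG, log2 0.31 ± 0.0977 (SE, adjusted p = 0.0119), a call lost without MIG Bexarotene replicate 2 or MIG DMSO replicate 3 (adjusted p from 0.06988 to 0.1072). In IK6 with Bexarotene it had 3.67, 3.72 and 4.45 CPM, lower than in MIG, log2 -0.42 ± 0.106 (SE, adjusted p = 0.00347).

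The enolases parted ways. Eno1, the ubiquitous enolase, was lower in IK6 with DMSO, 2094, 2136, 3041 and 2185 CPM against 1661, 1469, 1485 and 1452 CPM, log2 -0.64 ± 0.155 (SE, adjusted p = 0.00168). Eno3, the muscle enolase, was higher, 17.4, 18.5, 14.3 and 18.4 CPM against 21.9, 20.6, 22.5 and 21.4 CPM, log2 0.33 ± 0.11 (SE, adjusted p = 0.0221), a call lost without IK6 DMSO replicate 3, log2 0.31 (adjusted p = 0.05804), and without MIG DMSO replicate 3, log2 0.26 (adjusted p = 0.1033). In MIG Eno3 was called lower with Carbacyclin and with Bexarotene. In IK6 Eno3 fell with Carbacyclin to 10.2, 12.7 and 11.3 CPM, log2 -0.93 ± 0.123 (SE, adjusted p = 2.16e-07), and with ATRA to 14.4, 15.1, 13.6 and 13.7 CPM, log2 -0.60 ± 0.11 (SE, adjusted p = 3.48e-05), without overlap. With Bexarotene it had 13.9, 13.5 and 10.4 CPM in MIG and 17.1, 16.9 and 15.2 CPM in IK6, log2 0.38 ± 0.129 (SE, adjusted p = 0.0321), a call lost without IK6 Bexarotene replicate 1 or 2 or MIG Bexarotene replicate 3 (adjusted p from 0.08884 to 0.1865). Eno2, the neuronal enolase, stayed under 1.2 CPM in every library and fell with Carbacyclin in MIG from 0.834, 0.678, 0.588 and 1.19 to 0.314, 0.261, 0.281 and 0.0956 CPM, log2 -1.75 ± 0.273 (SE, adjusted p = 2.34e-06).

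Lactate dehydrogenase A (Ldha), which reduces pyruvate to lactate, had 2403, 2665, 4060.1 and 2700.1 CPM in MIG and 1825, 1742, 1794 and 1793 CPM in IK6 with DMSO. The IK6 libraries lay close together and below all MIG libraries, log2 -0.73 ± 0.185 (SE, adjusted p = 0.00286). In MIG it had 2644, 2155, 2134 and 2101 CPM with ATRA, 1527, 1569.7 and 2231 with Bexarotene, 1491, 1753, 1419.5 and 3273 with Carbacyclin and 2324, 2168, 2244 and 2107 with NOE. The Bexarotene group lay below DMSO, log2 -0.74 ± 0.203 (SE, adjusted p = 0.00405), whereas replicate 4 of Carbacyclin overlapped it. The Carbacyclin change, log2 -0.58 ± 0.185 (SE, adjusted p = 0.0105), was lost without MIG Carbacyclin replicate 3, log2 -0.44 (adjusted p = 0.05713), and without MIG DMSO replicate 3, log2 -0.40 (adjusted p = 0.06721). IK6 cells had 1620.5, 1583, 1569 and 1683 CPM with ATRA, 1619, 1538 and 1843 with Bexarotene, 2519, 2078 and 1835 with Carbacyclin and 3002, 2267, 1959 and 2306 with NOE. No compound gave a called change in IK6, where NOE was nearest with log2 0.41 (adjusted p = 0.0732) and a 95% interval of 0.04 to 0.79. Ldhb, the heart-type subunit, was below 1 CPM in every library and lower in IK6, 0.449, 0.254, 0.509 and 0.339 CPM in MIG against 0.13, 0.0642, 0.0749 and 0.0872 CPM in IK6, log2 -2.01 ± 0.369 (SE, adjusted p = 5.79e-05).

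Slc16a3, the lactate exporter shown above with DMSO, answered Carbacyclin and NOE differently in the 2 vectors. The MIG libraries had 216, 173, 206 and 206 CPM with ATRA, 104, 104 and 134 with Bexarotene, 57.6, 82.1, 64.3 and 106 with Carbacyclin and 194, 186, 159 and 153 with NOE, beside the 166 to 246 CPM with DMSO. Bexarotene and Carbacyclin lay below every DMSO library, log2 -0.82 ± 0.162 (SE, adjusted p = 0.00013) and log2 -1.37 ± 0.15 (SE, adjusted p = 3.6e-09), while ATRA gave log2 0.00 with an interval of -0.30 to 0.30. In IK6 it had 93.1, 111, 103 and 95.2 CPM with ATRA, 95.6, 100 and 117 with Bexarotene, 98.3, 114 and 80.9 with Carbacyclin and 199, 175, 127 and 183 with NOE, beside 77.9 to 83.1 CPM with DMSO. Only the NOE rise was called, log2 1.08 ± 0.149 (SE, adjusted p = 3.35e-07), and the estimates for the other 3 compounds were log2 0.32, log2 0.37 and log2 0.28. Slc16a1 (MCT1), which carries lactate and pyruvate in either direction, did not differ between the vectors by a called amount, with 217, 214, 243 and 215 CPM in MIG and 227, 228, 219 and 224 CPM in IK6, log2 0.01 and an interval of -0.11 to 0.13. It fell with ATRA to 147, 147, 141 and 133 CPM in MIG and 174, 165, 166 and 168 CPM in IK6, with Bexarotene to 169, 157 and 179.6 and 140.2, 153 and 157 CPM, and with NOE to 141, 147, 156 and 159 and 174, 160.4, 169.6 and 156 CPM. None of these 6 groups overlapped DMSO, and the changes ran from log2 -0.64 to log2 -0.40, with adjusted p-values from 8.34e-11 to 6.82e-06. NOE therefore raised Slc16a3 and lowered Slc16a1 in the same IK6 libraries.

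Pdk1, a kinase that switches off pyruvate dehydrogenase, had 733, 779, 771 and 806 CPM in MIG and 489.6, 483, 517 and 524 CPM in IK6 with DMSO, without overlap, log2 -0.62 ± 0.0747 (SE, adjusted p = 4.66e-08). In MIG the level was 647, 611, 529 and 587 CPM with ATRA, 420.2, 424 and 409 with Bexarotene, 475, 479, 424 and 513 with Carbacyclin and 918, 945, 988 and 1077 with NOE. The first 3 groups lay below and the NOE group above all DMSO libraries, with changes of log2 -0.38 ± 0.0745, log2 -0.89 ± 0.0822, log2 -0.71 ± 0.0748 and log2 0.35 ± 0.0745 and adjusted p-values from 1.9e-10 to 0.000253. The IK6 libraries had 402, 408, 382 and 419 CPM with ATRA, 361, 357 and 437 with Bexarotene, 471, 552 and 445 with Carbacyclin and 992, 1019, 989 and 936 with NOE. NOE raised it, log2 0.97 ± 0.0751 (SE, adjusted p = 1.5e-12), to a mean of 984 CPM beside 982 CPM in MIG with NOE, and the vectors did not differ by a called amount under NOE (log2 0.00, interval -0.15 to 0.15). The interaction was log2 0.62 ± 0.105 (SE, adjusted p = 8.68e-05) with NOE, log2 0.67 ± 0.109 (SE, adjusted p = 4.78e-05) with Carbacyclin and log2 0.50 ± 0.114 (SE, adjusted p = 0.0052) with Bexarotene.

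Pdk2, another of these kinases, was low and rose with most compounds. MIG cells had 5.36, 3.90, 5.84 and 4.37 CPM with DMSO, 8.81, 6.12, 7.06 and 7.66 with ATRA, 6.07, 7.50, 6.94 and 8.73 with Carbacyclin and 7.26, 7.05, 6.71 and 5.78 with NOE, and the changes were log2 0.62 (adjusted p = 0.000841), log2 0.60 (adjusted p = 0.000816) and log2 0.48 (adjusted p = 0.00725). The ATRA and Carbacyclin groups lay above all DMSO libraries and the NOE group overlapped them. In IK6 it rose with Bexarotene from 3.07, 3.57, 4.59 and 2.96 to 7.29, 6.61 and 6.73 CPM, log2 0.96 ± 0.158 (SE, adjusted p = 8.15e-06), and with NOE to 7.36, 5.99, 5.23 and 6.83 CPM, log2 0.84 ± 0.146 (SE, adjusted p = 1.53e-05). With ATRA it had 4.90, 5.48, 5.80 and 4.54 CPM in IK6, overlapping DMSO, log2 0.55 ± 0.148 (SE, adjusted p = 0.00277), and with Carbacyclin 5.20, 4.53 and 3.97 CPM, below the MIG libraries with Carbacyclin, log2 -0.68 ± 0.159 (SE, adjusted p = 0.000965). Pdk3 fell with ATRA and Bexarotene in both vectors, from 42.0, 46.8, 49.5 and 41.8 CPM in MIG with DMSO to 27.6, 25.0 and 28.7 CPM with Bexarotene, log2 -0.73 ± 0.0863 (SE, adjusted p = 2.73e-08). With the same compound in IK6 it went from 40.7, 41.4, 42.8 and 41.8 to 28.0, 27.2 and 28.8 CPM, log2 -0.57 ± 0.0862 (SE, adjusted p = 1.99e-06). With NOE it had 34.3, 36.4, 37.6 and 40.7 CPM in MIG, log2 -0.27 ± 0.0782 (SE, adjusted p = 0.00447). Of the subunits of the dehydrogenase itself, Pdha1 fell with Bexarotene in each vector, to 175, 176 and 187 CPM from 230.2, 243, 269.5 and 239 CPM in MIG, log2 -0.45 ± 0.086 (SE, adjusted p = 7.44e-05). In IK6 it fell to 178, 180.3 and 199 CPM from 254, 254, 252 and 253 CPM, log2 -0.45 ± 0.086 (SE, adjusted p = 7.9e-05). With ATRA Pdha1 had 229, 222, 192 and 191 CPM in MIG and 264, 242, 237 and 275 CPM in IK6, a difference of log2 0.29 ± 0.079 (SE, adjusted p = 0.00355). Pdhb gave no called change in any of the 19 comparisons (edgeR), and its group means ran from 96.0 to 124 CPM.

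The phosphoglucomutase named Pgm2 had 95.1, 96.8 and 105 CPM with Bexarotene and 77.7, 92.3, 80.9 and 119 CPM with Carbacyclin in MIG, both below all MIG DMSO libraries, log2 -0.98 ± 0.112 (SE, adjusted p = 1.49e-08) and log2 -1.08 ± 0.103 (SE, adjusted p = 1.39e-10). In IK6 the level was 76.0, 69.8 and 84.0 CPM with Bexarotene, 88.5, 95.3 and 72.7 with Carbacyclin and 201, 181, 145 and 184 with NOE. With ATRA it had 175, 157, 153 and 163 CPM in MIG and 63.7, 68.4, 64.6 and 62.9 CPM in IK6. NOE, with 195, 185, 181 and 179.7 CPM in MIG, was not called there at log2 -0.08 but raised it in IK6 2.39-fold, log2 1.26 ± 0.103 (SE, adjusted p = 5e-12). The interactions were log2 1.34 ± 0.144 (SE, adjusted p = 5.44e-08) with NOE, log2 1.28 ± 0.149 (SE, adjusted p = 1.59e-07) with Carbacyclin and log2 1.03 ± 0.156 (SE, adjusted p = 5e-05) with Bexarotene. The other phosphoglucomutase, which the files name Pgm1 (ENSMUSG00000029171, called Pgm2 in the current table), had 28.0, 29.2, 36.7 and 31.3 CPM in MIG and 31.9, 34.5, 34.2 and 33.6 CPM in IK6 with DMSO and was not called at log2 0.10. It fell with Bexarotene in MIG to 21.9, 20.1 and 25.6 CPM, log2 -0.47 ± 0.112 (SE, adjusted p = 0.000898). With ATRA it had 29.5, 27.3, 24.8 and 23.6 CPM in MIG and 33.7, 32.0, 29.7 and 34.0 CPM in IK6, log2 0.30 ± 0.102 (SE, adjusted p = 0.0198). That call was lost without IK6 ATRA replicate 1 or 4 or MIG ATRA replicate 3 or 4 (adjusted p from 0.05114 to 0.0793). With NOE it had 26.8, 26.8, 27.6 and 29.0 and 44.0, 33.4, 34.0 and 33.9 CPM, log2 0.40 ± 0.101 (SE, adjusted p = 0.00224). Its group means ran from 22.5 to 36.3 CPM.

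How far each gene followed the rest was described by correlating its log2(CPM + 0.5) group means with the median of the other members over the 10 groups, which share libraries' depth and scaling. The correlation was at least 0.8 for 18 of 36 genes, led by Slc2a1 (0.935), Pgk1 (0.926), Gpi1 (0.912) and Tpi1 (0.912). It was under 0.2 for 10 genes, among them Pdhb (-0.535), Pfkfb2 (-0.345), Pfkfb1 (-0.252), Slc16a1 (-0.0391), Hk3, Pdk2, Slc2a6 and Slc2a8. Over the libraries within groups, 13 genes had a correlation of at least 0.8, led by Gpi1 (0.966) and Aldoa (0.955). Pfkp had 0.185, Hk2 -0.214 and Pfkfb2 -0.815, the lowest of the 36. The group with the highest mean was IK6 with NOE for 10 genes, MIG with DMSO for 9 and MIG with ATRA for 7, and the lowest was MIG with Bexarotene for 11 and MIG with Carbacyclin for 7.

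Genes next to the pathway were followed in lists outside the 38 names, whose counts are set beside the share of all tested genes called in the same direction. Pkm2, the row of the pyruvate kinase gene that makes pyruvate at the end of glycolysis, had 4281, 4661, 6538 and 4774 CPM in MIG and 3297, 3022, 3085 and 3006 CPM in IK6 with DMSO, log2 -0.71 ± 0.155 (SE, adjusted p = 0.000601). It fell in MIG with Bexarotene, log2 -0.90 ± 0.171 (SE, adjusted p = 7.5e-05), and with Carbacyclin, log2 -0.87 ± 0.156 (SE, adjusted p = 2.18e-05), and rose in IK6 with NOE, log2 0.55 ± 0.155 (SE, adjusted p = 0.00427). Among 8 tested further glycolysis genes 4 were lower in IK6 with DMSO and 0 higher, also at an unadjusted p under 0.05 (edgeR), against 12.7% and 13.3% of all tested genes, with a median log2 fold change of -0.36 against -0.01 over all. With Carbacyclin in MIG 5 of the 8 fell and 3 rose (23.3% and 24.7% of all genes). With NOE in IK6 2 rose and 2 fell (22.8% and 18.2%), and their median of 0.02 lay beside 0.03 over all genes. Of 13 tested genes of gluconeogenesis and glycogen, 6 were lower and 2 higher in IK6 (12.7% and 13.3%), with a median of -0.16. With Carbacyclin in MIG 9 of the 13 fell and 2 rose (23.3% and 24.7%, median -0.42), and with NOE in IK6 8 rose and 1 fell (22.8% and 18.2%, median 0.59).

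The tricarboxylic acid cycle, which oxidizes pyruvate further, was counted beside it: of 19 tested genes, 1 was higher and 1 lower in IK6 with DMSO, against 13.3% and 12.7% of all tested genes, with a median log2 fold change of 0.03. Of these 19, 11 fell with ATRA in MIG (21.2% of all tested genes), 12 with Bexarotene in MIG (18.2%), 12 with NOE in MIG (22.3%) and 14 with Bexarotene in IK6 (19.4%). Their median log2 fold changes were -0.31, -0.33, -0.27 and -0.32, against -0.01, 0.00, 0.00 and 0.03 over all genes. With Carbacyclin in MIG 3 fell and 3 rose (23.3% and 24.7%).

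The remaining lists were compared between the vectors with DMSO, where the same 12.7% of all tested genes were lower and 13.3% higher in IK6 and the median over all was -0.01. Of 11 tested genes of the pentose phosphate pathway, 3 were lower and 0 higher (edgeR, 2 higher at an unadjusted p under 0.05), with a median of -0.13. Of 9 tested genes of serine and hexosamine synthesis, branches that leave glycolysis, 4 were higher and 0 lower, and 0 lower at an unadjusted p under 0.05 (edgeR), with a median of 0.18. ATRA lowered 5 of these 9 in each vector (21.2% of all tested genes in MIG and 20.9% in IK6). In the list of pyruvate dehydrogenase partners, with 7 tested, 2 were higher and 1 lower in IK6 (median 0.18), and of 6 tested lactate and pyruvate transport genes 1 was higher and 0 lower (edgeR, also 0 at an unadjusted p under 0.05, median 0.04).

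Among 19 tested regulators, 7 were lower and 2 higher in IK6 with DMSO (12.7% and 13.3% of all tested genes), with a median of -0.18. Myc, a transcription factor that activates glycolysis genes, had 307, 287, 303 and 285 CPM in MIG and 262, 254, 268 and 237 CPM in IK6, log2 -0.21 ± 0.0555 (SE, adjusted p = 0.00361). With ATRA it fell in MIG to 126, 124, 132 and 129.7 CPM, log2 -1.21 ± 0.0564 (SE, adjusted p = 3.45e-18), and with Bexarotene to 142, 139 and 144 CPM, log2 -1.06 ± 0.0617 (SE, adjusted p = 2.85e-15). With Carbacyclin it rose to 345, 369, 369 and 369 CPM, log2 0.30 ± 0.0555 (SE, adjusted p = 3.95e-05). Bexarotene and Carbacyclin lowered 27 and 23 of the 36 members in MIG, where Myc fell with the first and rose with the second. In IK6 with NOE, where 25 members rose, Myc had 330, 320, 297 and 340 CPM, above all IK6 DMSO libraries. The IK6 libraries with ATRA and Carbacyclin also lay above DMSO, and those with Bexarotene lay below. Hif1a, the oxygen-regulated activator of the pathway, kept group means of 105 to 139 CPM, and with Bexarotene and Carbacyclin in MIG was not called at log2 0.00 and log2 -0.17. Egln3, an oxygen-dependent prolyl hydroxylase whose own transcription is known to follow HIF, had 128, 146, 169.6 and 155 CPM in MIG with DMSO, 43.4, 43.8 and 48.2 with Bexarotene and 48.7, 62.5, 60.2 and 84.4 with Carbacyclin, log2 -1.73 (adjusted p = 1.38e-12) and log2 -1.22 (adjusted p = 1.08e-10). In IK6 it rose with NOE from 132, 121, 145 and 131 to 349, 301, 255 and 317 CPM, log2 1.21 ± 0.114 (SE, adjusted p = 1.3e-10). With DMSO, where 23 members were lower in IK6, the Egln3 ranges of the 2 vectors overlapped. These are RNA levels, and the activity of Myc and HIF was not measured. Their part in the changes of the members was not tested. Of the 19 regulators, 4 were lower and 5 higher with Bexarotene in MIG (18.2% and 19.9% of all tested genes). With Carbacyclin in MIG 7 were lower and 6 higher (23.3% and 24.7%). With NOE in IK6 0 were lower and 8 higher (18.2% and 22.8%), with 1 lower at an unadjusted p under 0.05 (edgeR). Txnip, an inhibitor of glucose uptake, was lower in IK6 with DMSO, 464, 508, 524 and 515 CPM against 399, 402, 405 and 399 CPM, log2 -0.33 ± 0.0686 (SE, adjusted p = 0.000363), and Bexarotene lowered it in MIG, log2 -0.80 ± 0.0755 (SE, adjusted p = 3.14e-10). In IK6 with NOE, where 25 members rose, Txnip had 539, 441, 494 and 486 CPM, above all IK6 DMSO libraries. It lay below all DMSO libraries with Carbacyclin in each vector and with Bexarotene in IK6, and above them with ATRA in MIG.

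The kinase Pdk4, which is not among the 38 names, had 0 counts in all 8 libraries of MIG with DMSO and of MIG with NOE. IK6 cells had 1 count over the 4 DMSO libraries, 1 over the 4 NOE libraries, and 1.44, 1.20, 1.35 and 1.53 CPM with ATRA, 1.38, 1.15 and 1.69 with Bexarotene and 4.69, 5.42 and 5.20 with Carbacyclin. In MIG it had 0.126, 0.118, 0.0614 and 0.148 CPM with ATRA, 0.253, 0.333 and 0.202 with Bexarotene and 0.942, 1.03, 0.929 and 0.924 with Carbacyclin. The row 9630033F20Rik, a name that the RefSeq table gives as an older symbol of Tigar, had 10.3, 9.60, 10.4 and 10.5 CPM in MIG and 10.2, 10.6, 11.2 and 9.96 CPM in IK6 with DMSO, overlapping and not called. Tigar encodes a fructose 2,6-bisphosphatase-like enzyme that slows glycolysis. The row rose with all 4 compounds in MIG, by log2 0.47 with NOE to log2 0.85 with Carbacyclin, and in IK6 by log2 0.84 with ATRA, to 18.5, 18.8, 19.0 and 18.9 CPM. In IK6 with NOE, where 25 members rose, its change was log2 0.16 (adjusted p = 0.0402).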

How the data were processed

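RNA was extracted with Trizol and libraries were made with the TruSeq RNA v2 kit for Illumina sequencing, per the labels' protocols. The authors deposited 1 table of raw read counts per gene for each of the 37 libraries, and the submitters' processing notes name BWA 0.5.9, HTSeq and build mm9. How reads were assigned to genes, with or without strand, and which annotation was used are not stated there, so reads of overlapping, antisense or near-identical genes cannot be told apart.

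The members and the related gene lists were chosen with earlier results of these data known. Members were matched by the gene name in the files, and groups were taken from the sample labels. Counts were filtered with filterByExpr (minimum count 10, minimum total 15), scaled by TMM and fitted in 1 model of 10 groups with edgeR 4.0.16 (robust quasi-likelihood, R 4.3.3), with 27 residual degrees of freedom. Each of 19 comparisons was tested on both sides, and p-values were adjusted by Benjamini-Hochberg over all 15699 tested genes, with a threshold of 0.05. Standard errors and 95% intervals were taken from the same fit. The remaining 19591 genes were not tested. CPM values use the scaled library sizes and no gene length, so levels are not compared between genes. Library values are given one by one for the 4 largest changes each way in each comparison, among genes averaging 1 CPM or more in either group, plus Slc2a1, Hk2, Gapdh, Ldha, Pdk1 and Slc16a3. Library values of Eno1, Eno2, Ldhb, Pkm2, Myc, Egln3, Txnip, Pdk4 and 9630033F20Rik were added after their values were seen. The fit was tested on simulated counts. Alternatives were DESeq2 1.42.0, median-ratio scaling, other filters, the compared groups alone, a replicate block and each library left out in turn. Leaving out 3 libraries, the ribosomal share as a covariate and adding gene copies were chosen after seeing the data. Promoter windows came from RefSeq's GRCm38.p6 table, with coordinates on that build and not on mm9. Total counts limit the precision of low genes most.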

Additional observations from a re-analysis of the deposited data

Results flagged for a closer look

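Over 49 sets of 4 libraries, each a group in 1 measure, 3 held a library far from the others, where chance gives about 1 in 20 groups. Hk2 in MIG Carbacyclin replicate 4 stood at 60.4 CPM, below the other 3 libraries. Ldha in MIG ATRA replicate 1 stood at 2644 CPM, above the other 3. The share of counts on the glycolysis genes in IK6 DMSO replicate 2 was 1.26%, below the 1.28% of each of the others.

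The response to a compound differed between IK6 and MIG, by the edgeR test of the interaction. With ATRA the log2 difference was 0.88 for Slc2a3, 0.69 for Hk2 and -0.51 for Pfkp. With Bexarotene it was 1.18 for Slc16a3, 1.03 for the phosphoglucomutase named Pgm2, 0.83 for Pfkl, 0.76 for Pgam1, 0.63 for Slc2a1, 0.64 for Hk2 and 0.50 for Pdk1. With Carbacyclin it was 1.64 for Slc16a3, 1.46 for Slc2a3, 1.28 for Pgm2, 1.10 for Slc2a1, 1.05 for Hk2, 0.84 for Ldha and 0.67 for Pdk1. With NOE it was 1.34 for Pgm2, 1.29 for Slc16a3, 1.11 for Slc2a3, 0.98 for Tpi1, 0.86 for Slc2a1, 0.62 for Hk2, 0.83 for Ldha and 0.62 for Pdk1. For Ldha the Carbacyclin call was lost without IK6 Carbacyclin replicate 1 or 2, IK6 DMSO replicate 1, 2, 3 or 4, MIG Carbacyclin replicate 1, 2 or 3 or MIG DMSO replicate 2, 3 or 4 (adjusted p from 0.05188 to 0.1581), and the NOE call was lost without IK6 DMSO replicate 1, 2, 3 or 4, IK6 NOE replicate 1 or 4, MIG DMSO replicate 2, 3 or 4 or MIG NOE replicate 1, 2, 3 or 4 (adjusted p from 0.05153 to 0.1475). All of these share the DMSO libraries.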

How the results depend on the processing

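No direction reversed among the 334 gene calls of the 36 members over the 19 comparisons under any alternative run. DESeq2 lost 3 of the 334 calls, median-ratio scaling 3, the stricter filter 5 of 320, no filter 32, the compared groups fitted alone 32 of 331, and leaving out the 3 libraries of high ribosomal share 9, while the ribosomal covariate and the added gene copies lost 0. Counts of members called moved by more than 1.5 times in these cases, and the cause was not tested. With the ribosomal covariate, Carbacyclin in IK6 went from 11 to 23 genes, NOE in MIG from 10 to 16, IK6 against MIG with Bexarotene from 8 to 13 and with Carbacyclin from 15 to 26, and Bexarotene against ATRA in IK6 from 10 to 19. With the compared groups alone, IK6 against MIG gave 4 with Bexarotene and 4 with Carbacyclin, the ATRA interaction 6 instead of 3, and Bexarotene against ATRA in IK6 20. No filter gave 5 for IK6 against MIG with Bexarotene. Without the 3 libraries, IK6 against MIG with Carbacyclin gave 24 and Bexarotene against ATRA in IK6 18. Leaving out 1 library at a time gave 3 to 9 genes for IK6 against MIG with Bexarotene, and MIG DMSO replicate 3 alone ended 24 of the 166 calls it takes part in.

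Pooled over all groups, the replicate numbers gave no sign of pairing. Deviations of same-numbered libraries had a median correlation of -0.018 over 156 pairs, against 0.008 over 459 pairs of different numbers. The same-numbered pairs ran from -0.47 to 0.62 and the others from -0.55 to 0.73. A pooled median cannot show a pairing limited to some groups. With the numbers as a replicate block 9 of the 334 calls were lost and no count of members moved by 1.5 times.

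Depth limits Hk3, Eno2, Ldhb and Slc2a4, which stood near or below 1 CPM. It also limits Pdk4, except in IK6 with Carbacyclin (mean 5.10 CPM).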
